A study of Mus musculus with 12 samples.

Results

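The levels of 10 Notch pathway genes were followed across the 4 lines: the receptors Notch1, Notch2, Notch3 and Notch4, the ligands Jag1, Jag2, Dll1 and Dll4, and the target genes Hes1 and Hey1. They were taken by symbol from the 55471 genes in the count files, and all 10 were found. The study sequenced mRNA from untreated mouse melanoma cells of WT genotype, labelled as skin and subcutaneous tumor, with 3 libraries per line. The lines, in the order used here, are MeVa2.1.dOVA, the MeVa2.1 line whose name it extends, MeVa2.2.dOVA and, in the same way, MeVa2.2. The series title presents MeVa2.1.dOVA as refractory to immune attack. What dOVA stands for, whether a line is 1 clone and whether replicates are separate cultures is not in the labels, and p-values therefore measure no more than the spread among these libraries, which could be technical.

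Notch receptors are single-pass membrane proteins that bind Delta-like and Jagged ligands on a neighboring cell. Binding exposes the receptor to cleavage by ADAM proteases and then by gamma-secretase, which frees the intracellular domain to enter the nucleus, join RBPJ and Mastermind-like proteins and switch on Hes and Hey genes. In the melanocyte lineage Notch signaling is known to maintain melanoblasts and melanocyte stem cells, and in melanoma cells the pathway has been studied in growth and in contact with the surrounding tissue.

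Libraries held 16181816 to 35627069 gene counts, and levels are given in CPM, the gene's count scaled to a common total of gene counts. All replicate pairs differed by more than counting noise. Replicate 2 of MeVa2.1.dOVA and replicate 2 of MeVa2.2 lay apart from the other libraries of their lines on the first principal components, which held 46.9% and 19.8% of the variance. Replicate 3 of MeVa2.2.dOVA also stood off from its line on these components. Its log2 CPM correlated at 0.960 and 0.952 with replicates 1 and 2, against 0.985 between those. The libraries said below to lie apart are the 2 named first. Differences were tested with edgeR's quasi-likelihood test over 13985 genes, a gene was called at an adjusted p under 0.05, and log2 fold changes carry the standard error (SE) that the test implies. Of the 10 genes, 9 had enough counts for the test, and Jag2 did not. In such bulk libraries fewer cells with a transcript and less transcript per cell cannot be told apart. In the library-by-library plots, Notch3 was higher in every library of the MeVa2.1 lines than in any of the MeVa2.2 lines, while Notch2 and Jag1 were abundant in every library.

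**Figure D1:**
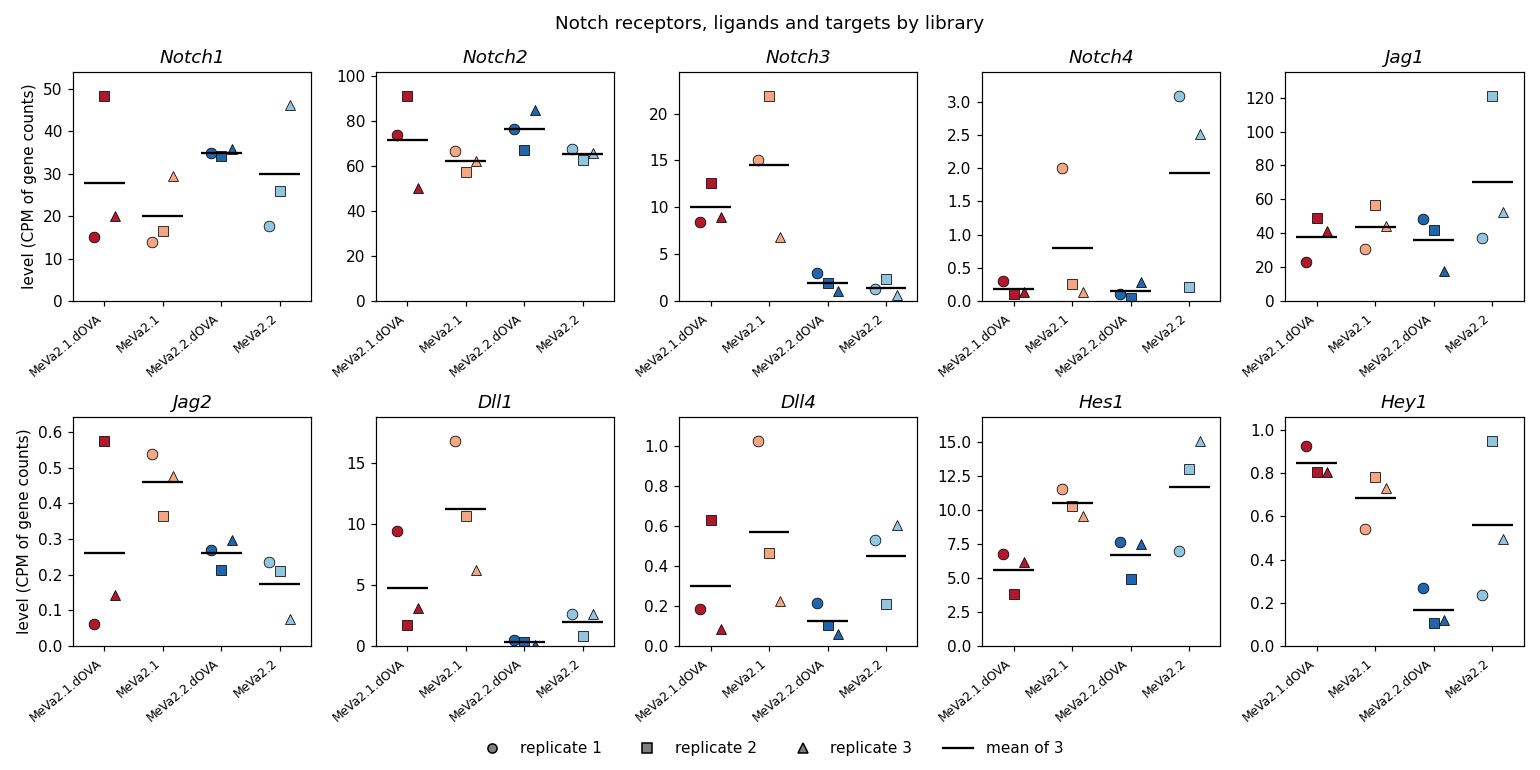
Level of each member in CPM (y axis, linear, own scale per gene) in every library of the 4 lines (x axis), with the bar at the mean of 3 libraries and the symbol giving the replicate number. Notch3 lay between 6.82 and 21.8 CPM in the 6 libraries of MeVa2.1.dOVA and MeVa2.1, and between 0.647 and 2.97 CPM in the 6 libraries of MeVa2.2.dOVA and MeVa2.2.

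Notch2, a broadly expressed receptor, was the steadiest member. Its level was 73.6, 90.9 and 50.1 CPM in replicates 1, 2 and 3 of MeVa2.1.dOVA, against 66.7, 57.4 and 62.2 CPM in MeVa2.1. It was 76.6, 67.2 and 84.8 CPM in MeVa2.2.dOVA, against 67.5, 62.8 and 65.8 CPM in MeVa2.2. The means of the lines, 71.5 ± 20.5, 62.1 ± 4.68, 76.2 ± 8.77 and 65.4 ± 2.35 CPM in the same order (SD, n = 3), spanned a ratio of 1.23, and every neighboring pair in their order overlapped. The gene lies on chromosome 3 (98013527 to 98150361, plus strand, GRCm38), and Gm42820, a gene model of type TEC on the same strand that shares 541 exon bases with it, held 2 to 12 counts a library.

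Notch1, the receptor best known from T-cell development and leukemia, varied widely within all lines but MeVa2.2.dOVA. It was at 15.2, 48.2 and 20.003 CPM in MeVa2.1.dOVA, against 13.98, 16.6 and 29.5 CPM in MeVa2.1. The values were 34.9, 34.1 and 35.7 CPM in MeVa2.2.dOVA, against 17.8, 25.9 and 46.2 CPM in MeVa2.2. The high value in MeVa2.1.dOVA belonged to replicate 2, the library that lay apart, and the high value in MeVa2.2 to replicate 3. The means were 27.8 ± 17.8 CPM in MeVa2.1.dOVA, 20.01 ± 8.32 in MeVa2.1, 34.9 ± 0.809 in MeVa2.2.dOVA and 29.96 ± 14.6 in MeVa2.2 (SD, n = 3). In the order of these means, with MeVa2.2.dOVA highest and MeVa2.1 lowest, each line overlapped the next. On the other strand, 0610009E02Rik shares 1068 exon bases with Notch1 and held 2 to 24 counts a library. Gm13568 shares 414 and held 0 to 2.

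Notch3, the receptor best known in vascular smooth muscle and pericytes, separated the lines by origin. It reached 8.40, 12.6 and 8.98 CPM in MeVa2.1.dOVA, against 2.97, 1.92 and 1.10 CPM in MeVa2.2.dOVA. It reached 15.01, 21.8 and 6.82 CPM in MeVa2.1, against 1.302, 2.37 and 0.647 CPM in MeVa2.2. All 6 libraries of the MeVa2.1 lines were above all 6 of the MeVa2.2 lines, while MeVa2.1.dOVA overlapped MeVa2.1 and MeVa2.2.dOVA overlapped MeVa2.2. The means were 10.01 ± 2.29 CPM in MeVa2.1.dOVA, 14.5 ± 7.51 in MeVa2.1, 1.99 ± 0.936 in MeVa2.2.dOVA and 1.44 ± 0.870 in MeVa2.2 (SD, n = 3). The counts behind these values were 136 to 419 in the MeVa2.1 lines and 17 to 55 in the MeVa2.2 lines. The gene lies on chromosome 17 (32120820 to 32166852, minus strand), and Gm17276, antisense to it over 488 exon bases, held 0 to 23 counts. The sequence around its start is shown because Notch3 was called in both comparisons of the MeVa2.1 lines with the MeVa2.2 lines. It is RefSeq's window on GRCm38.p6 (chr17:32166841-32167140, minus strand), 250 bases before to 50 after the start, with each GGGCGG, the letters of a GC box, in capitals on either strand.
Notch3: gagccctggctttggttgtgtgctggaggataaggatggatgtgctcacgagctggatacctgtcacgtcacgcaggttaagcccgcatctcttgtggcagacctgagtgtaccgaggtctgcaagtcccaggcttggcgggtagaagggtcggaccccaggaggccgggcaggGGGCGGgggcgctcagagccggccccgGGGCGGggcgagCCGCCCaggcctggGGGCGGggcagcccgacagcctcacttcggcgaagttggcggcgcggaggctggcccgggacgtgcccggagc
The start of this window lies outside the gene as the annotation used for its position gives it, and is the start of none of the transcripts used here. The window is 70% G or C and holds GGGCGG at 4 places. The share of all 32851 RefSeq windows with at least 1 GGGCGG was 35.7%.

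Notch4, a receptor best known in endothelial cells, was low and uneven. Its level was 0.309, 0.115 and 0.144 CPM in MeVa2.1.dOVA, against 1.998, 0.260 and 0.140 CPM in MeVa2.1. It was 0.108, 0.0533 and 0.297 CPM in MeVa2.2.dOVA, against 3.08, 0.211 and 2.51 CPM in MeVa2.2. The highest were 3 libraries, replicate 1 of MeVa2.1 with 37 counts and replicates 1 and 3 of MeVa2.2 with 52 and 66 counts, and the other 9 libraries held 1 to 10 counts. The means were 0.189 ± 0.105 CPM in MeVa2.1.dOVA, 0.799 ± 1.04 in MeVa2.1, 0.153 ± 0.128 in MeVa2.2.dOVA and 1.93 ± 1.52 in MeVa2.2 (SD, n = 3). In the order of these means, with MeVa2.2 highest and MeVa2.2.dOVA lowest, each line overlapped the next.

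Levels of different receptors were compared per kilobase of exon. Notch2 was the most abundant receptor in every library and made up 57.8% to 77.7% of the receptor signal in CPM per kilobase. Notch1 made up 10.6% to 33.3%. The share of Notch3 was 9.69% to 29.3% in the MeVa2.1 lines and 0.820% to 3.69% in the MeVa2.2 lines, so that Notch3 was above Notch1 in replicates 1 and 2 of MeVa2.1 and in no other library.

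**Figure D2:**
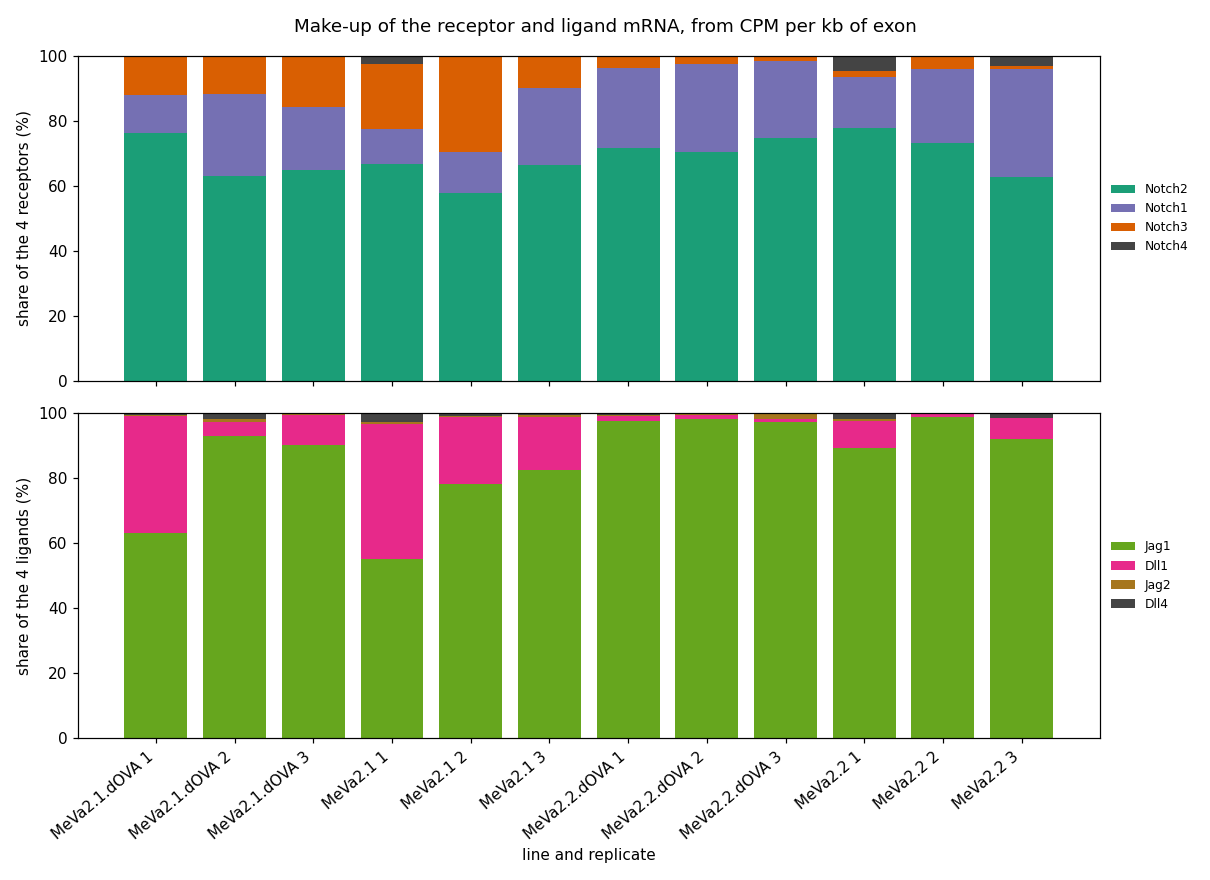
Share (%) of each receptor (upper panel) and each ligand (lower panel) in the summed CPM per kilobase of exon of its class, 1 bar per library. Notch2 made up 57.8% to 77.7% of the receptors and Jag1 55.2% to 98.7% of the ligands, and every Notch3 bar of the MeVa2.1 lines (9.69% to 29.3%) was wider than those of the MeVa2.2 lines (0.820% to 3.69%).

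Among the ligands, Jag1, whose mutation in humans causes Alagille syndrome, was the most abundant. It was at 22.9, 49.1 and 41.2 CPM in MeVa2.1.dOVA, against 31.0, 56.8 and 44.2 CPM in MeVa2.1. It was at 48.5, 42.1 and 17.9 CPM in MeVa2.2.dOVA, against 37.5, 120.7 and 52.5 CPM in MeVa2.2. The highest value came from replicate 2 of MeVa2.2, the library that lay apart, and the lines otherwise overlapped. The lowest came from replicate 3 of MeVa2.2.dOVA. The means were 37.8 ± 13.4 CPM in MeVa2.1.dOVA, 43.99 ± 12.9 in MeVa2.1, 36.2 ± 16.2 in MeVa2.2.dOVA and 70.2 ± 44.3 in MeVa2.2 (SD, n = 3).

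Dll1, the ligand known for segmentation of the embryo and for B-cell and neural fate choices, differed most between lines, with a ratio of 32.7 between the highest and the lowest line mean. It was at 9.46, 1.72 and 3.14 CPM in MeVa2.1.dOVA, against 16.8, 10.7 and 6.23 CPM in MeVa2.1. It was at 0.539, 0.373 and 0.119 CPM in MeVa2.2.dOVA, against 2.604, 0.790 and 2.66 CPM in MeVa2.2. MeVa2.2.dOVA lay below all other lines without overlap, on 4 to 10 counts a library, and MeVa2.1 lay above both MeVa2.2 lines. The means were 4.77 ± 4.12 CPM in MeVa2.1.dOVA, 11.2 ± 5.30 in MeVa2.1, 0.344 ± 0.212 in MeVa2.2.dOVA and 2.02 ± 1.06 in MeVa2.2 (SD, n = 3). From the highest down the order was MeVa2.1, then MeVa2.1.dOVA, then MeVa2.2 and last MeVa2.2.dOVA, and all neighbors but the final pair overlapped. The gene lies on chromosome 17 (15367354 to 15376872, minus strand), as Notch3 does, and shares 867 exon bases with the long noncoding A930024N18Rik on the other strand. A930024N18Rik was not among the genes counted. RefSeq gives it windows at 2 starts, at chr17:15375774-15376073 and chr17:15376883-15377182, which are shown for comparison with that of Notch3 (minus strand, GRCm38.p6, no capitals because GGGCGG did not occur).
Dll1 window 1: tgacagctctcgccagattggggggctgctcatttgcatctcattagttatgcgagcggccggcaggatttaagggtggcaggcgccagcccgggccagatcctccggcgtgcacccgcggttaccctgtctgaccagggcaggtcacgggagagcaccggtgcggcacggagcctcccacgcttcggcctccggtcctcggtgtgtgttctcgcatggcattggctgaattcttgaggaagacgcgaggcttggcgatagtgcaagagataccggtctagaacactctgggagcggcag
Dll1 window 2: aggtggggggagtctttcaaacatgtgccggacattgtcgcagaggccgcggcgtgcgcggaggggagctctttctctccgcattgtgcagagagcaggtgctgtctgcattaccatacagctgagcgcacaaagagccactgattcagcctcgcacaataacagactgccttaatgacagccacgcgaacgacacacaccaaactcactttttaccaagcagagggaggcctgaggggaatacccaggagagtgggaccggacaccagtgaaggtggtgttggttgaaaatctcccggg
The start in window 1 lies inside the annotated gene, and the last bases of that window occur in a transcript used here. Whether a transcript begins at that start was not checked. The start in window 2 lies outside the annotated gene. The windows were 62.7% and 56.3% G or C. The letters CGTGGGAA and TGGGAA, the second contained in the first and both forms of the RBPJ site, and CACGTG, an E-box, were searched on both strands and did not occur in the windows of the 8 members that RefSeq's table held (all except Hes1 and Hey1). They occurred in 0.734%, 25.6% and 7.15% of all windows.

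Jag2 and Dll4 were near the limit of these libraries. Jag2, a ligand known from T-cell and limb development, held 1 to 17 counts a library and at most 0.574 CPM. Dll4, best known as the ligand of endothelial tip cells, was at 0.185, 0.632 and 0.0863 CPM in MeVa2.1.dOVA, against 1.03, 0.469 and 0.225 CPM in MeVa2.1. It was at 0.216, 0.107 and 0.0594 CPM in MeVa2.2.dOVA, against 0.533, 0.211 and 0.609 CPM in MeVa2.2. These rest on 2 to 19 counts. In both genes each line overlapped the next in the order of the means, while MeVa2.1, at 0.364 to 0.540 CPM of Jag2, lay above both MeVa2.2 lines in that gene and above MeVa2.2.dOVA in Dll4.

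Per kilobase, Jag1 made up 55.2% to 98.7% of the 4 ligands. The share of Dll1 was 4.50% to 41.2% in the MeVa2.1 lines and 0.893% to 8.55% in the MeVa2.2 lines, ranges that overlap, and it was largest in replicate 1 of MeVa2.1 (41.2%) and replicate 1 of MeVa2.1.dOVA (36.0%). Over all 12 libraries the mean levels per kilobase ran Jag1 (8.07 CPM per kilobase), Notch2 (6.38), Hes1 (4.22), Notch1 (1.98), Dll1 (1.09), Notch3 (0.865), Hey1 (0.173), Notch4 (0.0953), Dll4 (0.0942) and Jag2 (0.0415). The order within single lines differed from this. Notch2 was above Jag1 in MeVa2.1.dOVA (6.63 against 6.48 CPM per kilobase) and MeVa2.2.dOVA (7.07 against 6.21), and Notch3 was above Dll1 in the same lines (1.24 against 1.13, and 0.247 against 0.0815). In MeVa2.1, Dll1 (2.66) and Notch3 (1.80) were above Notch1 (1.41).

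**Figure D3:**
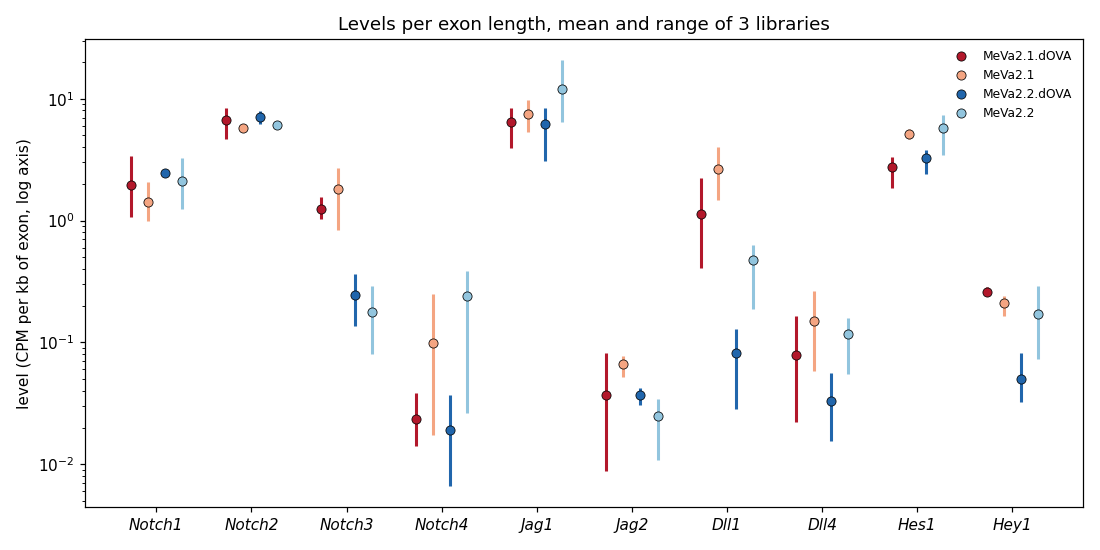
Level per exon length (CPM per kilobase, log axis) of the 10 members, with the point at the mean and the line from the lowest to the highest of the 3 libraries of each line. Jag1, Notch2 and Hes1 had the highest means over all libraries (8.07, 6.38 and 4.22 CPM per kilobase), and Notch4, Dll4 and Jag2 the lowest (0.0953, 0.0942 and 0.0415).

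Of the targets, Hes1, a repressor of the basic helix-loop-helix class and the classic readout of Notch activity, was detected in all libraries. It was at 6.74, 3.79 and 6.16 CPM in MeVa2.1.dOVA, against 11.6, 10.3 and 9.54 CPM in MeVa2.1, and these ranges did not overlap. It was at 7.66, 4.91 and 7.51 CPM in MeVa2.2.dOVA, against 6.98, 13.01 and 15.02 CPM in MeVa2.2, where replicate 1 of MeVa2.2 lay inside the range of MeVa2.2.dOVA. The means were 5.56 ± 1.56 CPM in MeVa2.1.dOVA, 10.5 ± 1.01 in MeVa2.1, 6.69 ± 1.55 in MeVa2.2.dOVA and 11.7 ± 4.18 in MeVa2.2 (SD, n = 3), so that both dOVA lines had lower means than both parents. Among neighbors in the order of the means, only MeVa2.1 and MeVa2.2.dOVA did not overlap. Signals other than Notch are also known to switch on Hes1.

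Hey1, a related repressor known from heart and vessel development, was 0.927, 0.804 and 0.806 CPM in MeVa2.1.dOVA, against 0.540, 0.781 and 0.730 CPM in MeVa2.1. It was 0.270, 0.107 and 0.119 CPM in MeVa2.2.dOVA, against 0.237, 0.948 and 0.494 CPM in MeVa2.2. MeVa2.2.dOVA held 5, 2 and 4 counts and lay below both MeVa2.1 lines, but replicate 1 of MeVa2.2, with 4 counts, was as low. The means were 0.846 ± 0.0705 CPM in MeVa2.1.dOVA, 0.684 ± 0.127 in MeVa2.1, 0.165 ± 0.0908 in MeVa2.2.dOVA and 0.560 ± 0.360 in MeVa2.2 (SD, n = 3). In the order of the means, MeVa2.1.dOVA and MeVa2.1 did not overlap, while MeVa2.1 overlapped MeVa2.2 and MeVa2.2.dOVA overlapped MeVa2.2.

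Across the 4 lines at once, 2 of the 9 tested members, Notch3 (edgeR adjusted p = 0.00394) and Dll1 (edgeR adjusted p = 0.00623), were called, where 14.2% of all genes were. Hey1, Hes1 and Notch4 had edgeR adjusted p-values of 0.0597, 0.0847 and 0.0872. Hes1 and Hey1 were also called without replicate 1 of MeVa2.2, and Notch4 and Hey1 without its replicate 2, so that the count was then 4. DESeq2 called 5, Notch3, Notch4, Dll1, Hes1 and Hey1, where it called 26.4% of all genes.

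The comparison of MeVa2.1 with MeVa2.2 set the 2 lines without dOVA side by side. Notch3 was higher in MeVa2.1, with a log2 fold change of 3.37 (SE 0.59, edgeR adjusted p = 0.00790), and was the 1 member called of 9, against 4.48% of all genes in either direction and 2.82% called higher. It was higher in all 3 MeVa2.1 libraries than in any MeVa2.2 library, and was called with each of the 12 libraries left out in turn (adjusted p 0.00627 to 0.0457). Dll1 was also without overlap, at a log2 fold change of 2.50 (SE 0.71) that missed the threshold (edgeR adjusted p = 0.0761). With the replicate number as a block it was called (2.45, edgeR adjusted p = 0.0168), where 9.51% of all genes were. DESeq2 called both genes, where it called 8.63% of all genes. Of the 9 tested members, Notch3 and Dll1 were without overlap between the 2 lines, a condition met by 23.5% of all genes. The other 7 tested members had adjusted p-values above that of Dll1, and the median log2 fold change of the 9 was -0.06, against -0.02 over all genes.

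Between MeVa2.1.dOVA and MeVa2.2.dOVA, 3 of the 9 members were called, all higher in MeVa2.1.dOVA, where 11.3% of all genes were called and 6.45% were called higher. Dll1 had a log2 fold change of 3.85 (SE 0.80, edgeR adjusted p = 0.0105) and was called with each library left out in turn. Notch3 had 2.37 (SE 0.57, edgeR adjusted p = 0.0209), and was no longer called without replicate 2 of MeVa2.1.dOVA (0.0524) or replicate 2 of MeVa2.2.dOVA (0.0769). Hey1 had 2.39 (SE 0.57, edgeR adjusted p = 0.0211), and was no longer called without replicate 1 (0.0680) or 3 (0.0579) of MeVa2.1.dOVA or replicate 2 (0.0976) or 3 (0.0518) of MeVa2.2.dOVA. Without replicate 2 of MeVa2.2.dOVA the count was 1. DESeq2 called the same 3, where it called 17.4% of all genes. These 3 were also the tested members without overlap, which 30% of all genes were. Notch1, Notch2, Notch4, Jag1, Dll4 and Hes1 had edgeR adjusted p-values of 0.410 or more. The median of the 9 was 0.19, against 0.01 over all genes.

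**Figure D4:**
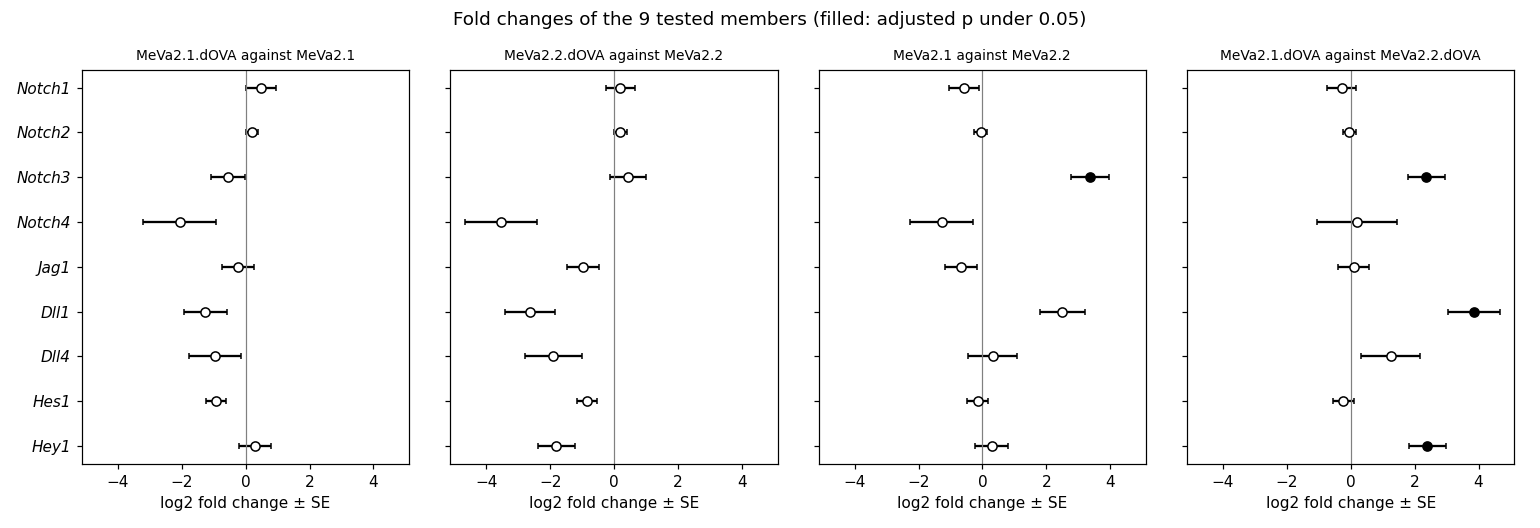
Log2 fold change (x axis) with its SE for the 9 tested members in the 4 comparisons of lines, with filled points at an adjusted p under 0.05. Filled points are Notch3 in MeVa2.1 against MeVa2.2 (3.37) and Notch3 (2.37), Dll1 (3.85) and Hey1 (2.39) in MeVa2.1.dOVA against MeVa2.2.dOVA.

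For MeVa2.1.dOVA against MeVa2.1, edgeR and DESeq2 each called 0 of the 9 members, where edgeR called 0.486% of all genes and DESeq2 2.82%. At an unadjusted p under 0.05 there was 1, against 11.2% of all genes. That gene was Hes1, at a log2 fold change of -0.93 (SE 0.33, edgeR adjusted p = 0.310). Dll1 was at -1.27 (SE 0.67, edgeR adjusted p = 0.529), and at -2.20 without replicate 1 of MeVa2.1.dOVA. Notch4 was at -2.07 (SE 1.14, edgeR adjusted p = 0.544), and at -0.09 without replicate 1 of MeVa2.1. Hes1, lower, and Hey1, higher, were the tested members without overlap, which 21% of all genes were. The median of the 9 was -0.56, against 0.00 over all genes.

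For MeVa2.2.dOVA against MeVa2.2, edgeR again called 0 of the 9, where it called 1.99% of all genes, and DESeq2 called 2, Notch4 and Dll1, where it called 6.96% of all genes. At an unadjusted p under 0.05 there were 4, all with negative log2 fold changes, against 16.4% of all genes in either direction and 9.73% with a negative one. These were Dll1 at -2.62 (SE 0.79, edgeR adjusted p = 0.121), Notch4 at -3.53 (SE 1.13, edgeR adjusted p = 0.143), Hey1 at -1.81 (SE 0.58, edgeR adjusted p = 0.143) and Hes1 at -0.84 (SE 0.32, edgeR adjusted p = 0.225). Dll4 was at -1.90 (SE 0.89, edgeR adjusted p = 0.317), and Jag1 at -0.98 (SE 0.50, edgeR adjusted p = 0.358) or -0.32 without replicate 2 of MeVa2.2. Dll1 was the 1 tested member without overlap, which 17.3% of all genes were. The median of the 9 was -0.98, against -0.02 over all genes.

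Whether the dOVA lines differed from their parents by different amounts was tested directly. No member was called by edgeR or DESeq2, where edgeR called 0.0858% of all genes and DESeq2 1.94%, and 1 had an unadjusted p under 0.05, against 8.49% of all genes. This was Hey1, whose difference was 2.101 larger in the MeVa2.1 pair (SE 0.77, edgeR adjusted p = 0.427). For Dll1 the value was 1.36 (SE 1.02, edgeR adjusted p = 0.845), and 0.41 without replicate 1 of MeVa2.1.dOVA or 0.87 without replicate 3 of MeVa2.2.dOVA.

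The mean of both dOVA differences was added after the data were seen. By edgeR 0 of 9 members were called, where 2.87% of all genes were, and 4 had an unadjusted p under 0.05, all with negative values, as for 11.3% of all genes. Hes1 was at -0.89 (SE 0.23, edgeR adjusted p = 0.0641), Dll1 at -1.95 (SE 0.52, edgeR adjusted p = 0.0701) and Notch4 at -2.80 (SE 0.80, edgeR adjusted p = 0.0883), and Dll4 was the fourth (edgeR adjusted p = 0.217). DESeq2 called Hes1, Dll1 and Notch4, where it called 8.37% of all genes. In edgeR, Dll1 and Notch4 were called without the filter on low counts (3.3% of all genes), and Hes1, Dll1 and Notch4 with the replicate block (11.9%). The mean includes the MeVa2.2 pair, which was not treated as paired, so the block is not fully backed here. With the filter and no block, Dll1 was called without replicate 1 of MeVa2.1.dOVA (0.0343), Hes1 without replicate 1 of MeVa2.2 (0.0451), and Dll1 (0.0364) and Notch4 (0.0328) without replicate 2 of MeVa2.2.

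The other genes of the pathway were taken from 6 lists of 58 genes, of which 45 were tested. The machinery of cleavage and transcription was present in all lines. Adam10, the protease of the first ligand-induced cut, averaged 77.9 CPM per kilobase over the 12 libraries, and Rbpj, the DNA-binding partner of the Notch intracellular domain, 30.2. All 10 cleavage genes and 16 of 17 nuclear genes were tested, and edgeR and DESeq2 each called 0 of them in the 4 comparisons of one line with another. At an unadjusted p under 0.05 in edgeR, 3 cleavage genes and 1 nuclear gene stood out for MeVa2.1.dOVA against MeVa2.1, where 11.2% of all genes did. In each of the other comparisons of one line with another, at most 1 of each list did. For the mean dOVA difference 3 of each list did (19.9% of all genes), and over the 4 lines also 3 (30.5%). EdgeR called 0 of them in both. DESeq2 called Ncstn and Snw1 for the mean dOVA difference (8.37% of all genes). Over the 4 lines it called Adam10, Adam17, Ncstn and Snw1 (26.4%). The cleavage genes had median log2 fold changes of -0.25 for MeVa2.1.dOVA against MeVa2.1, -0.05 for MeVa2.2.dOVA against MeVa2.2, 0.15 for MeVa2.1 against MeVa2.2 and 0.06 for MeVa2.1.dOVA against MeVa2.2.dOVA. The nuclear genes had medians of 0.11, 0.19, -0.11 and -0.25 in the same comparisons. Of the 5 glycosyltransferases, which add sugars to Notch, 4 were tested, and of 5 other ligands and ligand-like proteins, 2. In edgeR 0 of these 6 were called in the 4 comparisons. For MeVa2.2.dOVA against MeVa2.2, 2 of the 4 glycosyltransferases and 1 of the 2 ligands had an unadjusted p under 0.05, as 16.4% of all genes did. Between the dOVA lines 0 and 1 did, against 27.2% of all genes, and in the remaining comparisons 0 of both. DESeq2 called the ligand-like gene Dner for MeVa2.2.dOVA against MeVa2.2, for the mean dOVA difference and over the 4 lines. It called 6.96%, 8.37% and 26.4% of all genes there. Among the other Hes and Hey genes and Nrarp, 2 of 8 were tested, Hes6 and Hey2. In the 4 comparisons there were 0 edgeR calls and 1 DESeq2 call, Hey2 in MeVa2.1.dOVA against MeVa2.2.dOVA, where DESeq2 called 17.4% of all genes. Over the 4 lines DESeq2 also called Hey2 (26.4% of all genes). Heyl had no count in any library.

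Of the 13 genes of ligand and receptor trafficking, 11 were tested. By edgeR 2 were called, Neurl1b and Dtx3, both higher in MeVa2.1 than in MeVa2.2, where 4.48% of all genes were called, and Neurl1b alone between the dOVA lines, where 11.3% were. DESeq2 called the same 2 between the lines without dOVA, where it called 8.63% of all genes. Between the dOVA lines it called 3, Neurl1b, Numbl and Dtx4 (17.4% of all genes), and for MeVa2.2.dOVA against MeVa2.2 Dtx4 (6.96%). Over the 4 lines edgeR called 2 of the 11 (14.2% of all genes). DESeq2 called 5 there, Neurl1a, Neurl1b, Numbl, Dtx3 and Dtx4 (26.4%). Neurl1b encodes a Neuralized-type ubiquitin ligase that acts on Notch ligands. It was at 8.40, 1.21 and 9.70 CPM in MeVa2.1.dOVA, against 0.270, 0.0533 and 0.534 CPM in MeVa2.2.dOVA, and at 4.75, 3.64 and 11.6 CPM in MeVa2.1, against 0.296, 0 and 0.609 CPM in MeVa2.2. All libraries of the MeVa2.1 lines were above all those of the MeVa2.2 lines, which held 0 to 18 counts. The log2 fold change was 4.39 (SE 1.03, edgeR adjusted p = 0.0352) for MeVa2.1 against MeVa2.2, and 4.43 (SE 1.02, edgeR adjusted p = 0.0176) for MeVa2.1.dOVA against MeVa2.2.dOVA. The second call was lost without replicate 1 (0.0554) or 3 (0.0581) of MeVa2.1.dOVA or replicate 1 (0.0762) or 2 (0.0756) of MeVa2.2.dOVA. The first was lost in 8 of 12 such fits, without replicate 1 (0.0624), 2 (0.0664) or 3 (0.0919) of MeVa2.1, replicate 1 (0.0547) or 3 (0.0524) of MeVa2.1.dOVA, replicate 1 (0.121) or 2 (0.0783) of MeVa2.2 or replicate 1 (0.0561) of MeVa2.2.dOVA.

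Dtx3, a Deltex-family ubiquitin ligase, was at 70.1, 69.0 and 64.2 CPM in MeVa2.1, against 42.0, 39.3 and 34.8 CPM in MeVa2.2, with no overlap. Its log2 fold change was 0.83 (SE 0.19, edgeR adjusted p = 0.0301). This call was lost in 7 of 12 fits that left out 1 library, without replicate 1 (0.0954), 2 (0.115) or 3 (0.0598) of MeVa2.1, replicate 3 of MeVa2.1.dOVA (0.0511) or replicate 1 (0.0824), 2 (0.0782) or 3 (0.0953) of MeVa2.2. In MeVa2.1.dOVA against MeVa2.2.dOVA the values, 60.4, 44.2 and 56.6 CPM against 42.7, 41.7 and 64.2 CPM, overlapped.

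With the replicate block, 7 of the 45 pathway genes were called between MeVa2.1.dOVA and MeVa2.2.dOVA, in place of 1, where 22% of all genes were called. Besides Neurl1b, these were Dner, Lfng and Numbl, higher in MeVa2.1.dOVA, and Dtx4, Maml1 and Hey2, lower. They lie outside the rule for naming genes and are named because the count rests on them.

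**Figure D5:**
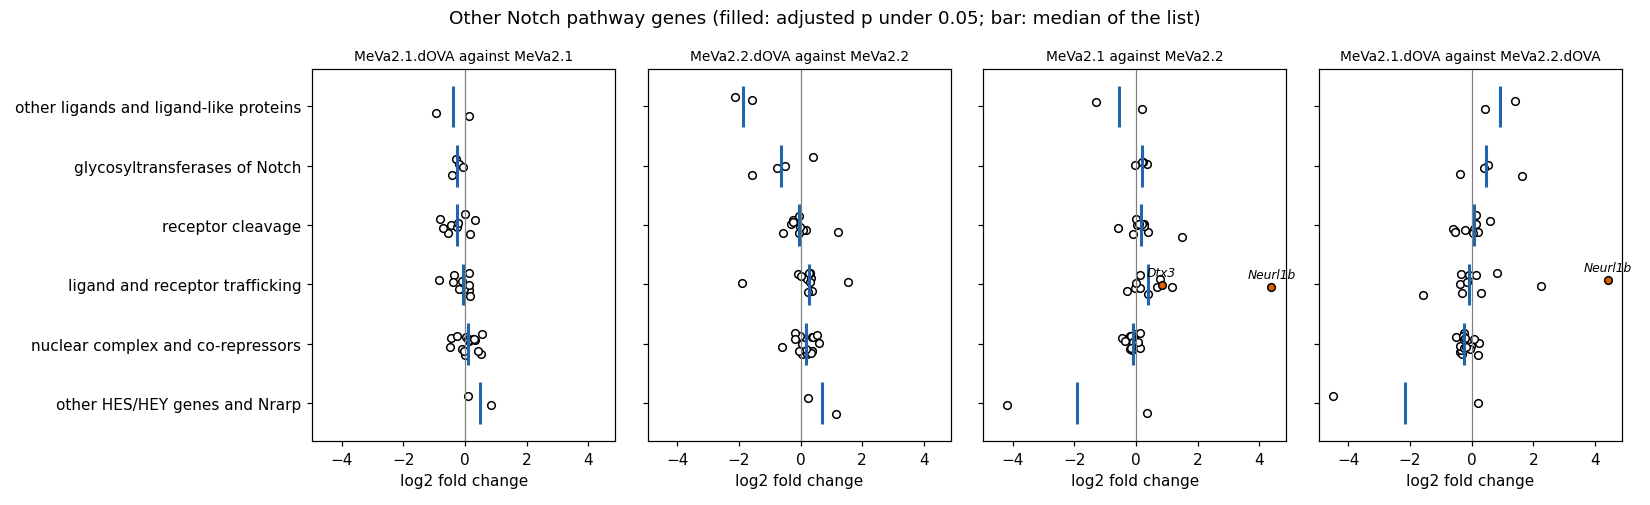
Log2 fold change (x axis) of the 45 tested pathway genes outside the members, by list, in the 4 comparisons of lines, with the bar at the median of the list and filled points at an adjusted p under 0.05. The filled points are Neurl1b (4.39) and Dtx3 (0.83) in MeVa2.1 against MeVa2.2, and Neurl1b (4.43) in MeVa2.1.dOVA against MeVa2.2.dOVA.

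The genes whose levels ran most like those of the 4 most variable tested members were sought among 8950 genes, by Pearson's r of log2 CPM over the 12 libraries, which share lines and depth, so that r is a description. For Dll1 these were Lbh (0.971), Pdp1 (0.967) and Lclat1 (0.962). For Notch3 they were Ntn1 (0.963), Ctsd (0.958) and Stk40 (0.955). Ntn1, the axon guidance protein netrin-1, averaged 16.2 ± 4.03 CPM in MeVa2.1.dOVA, 24.0 ± 5.11 in MeVa2.1, 6.77 ± 2.01 in MeVa2.2.dOVA and 4.28 ± 2.04 in MeVa2.2 (SD, n = 3). For Hey1 the nearest were Nrbp1 (0.919), Hdgfl3 (0.908) and Cachd1 (0.895), and for Notch4 Galnt1 (0.895), Snrpd2 (0.892) and Dusp14 (0.889).

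Markers of other cells that express these genes were measured beside them. The 10 endothelial markers summed to 3.05 to 4.94 CPM in MeVa2.1.dOVA, 3.20 to 6.37 in MeVa2.1, 1.49 to 3.80 in MeVa2.2.dOVA and 2.26 to 10.3 in MeVa2.2, and Tie1 and Cldn5 were at 0 in all lines. The highest endothelial sum, in replicate 1 of MeVa2.2, fell in the library with the highest Notch4. Of this sum 8.52 CPM came from Egfl7, and the library held 19 counts of Cdh5, 9 of Vwf, 1 of Pecam1 and 1 of Tek. Kdr, Emcn and Erg, like Tie1 and Cldn5, were at 0 in it. No other library held as many Cdh5 counts. The next libraries in Notch4, replicate 3 of MeVa2.2 and replicate 1 of MeVa2.1, held 8 and 0 counts of Cdh5. The remaining libraries held 0 to 7. Replicate 1 of MeVa2.2 also had the highest melanocyte sum. The 9 mural cell markers summed to 885 to 1312 CPM in MeVa2.1.dOVA, 922 to 1637 in MeVa2.1, 109 to 590 in MeVa2.2.dOVA and 474 to 930 in MeVa2.2, mostly Cspg4, which melanoma cells also express, in all lines but MeVa2.2.dOVA, and Kcnj8 and Abcc9 were at 0 in all lines. The 7 Schwann cell markers summed to 23.7 to 30.5 CPM in MeVa2.1.dOVA, 28.6 to 44.2 in MeVa2.1, 4.16 to 7.21 in MeVa2.2.dOVA and 6.21 to 11.9 in MeVa2.2. In each comparison of the MeVa2.1 lines with the MeVa2.2 lines 3 of the 5 tested were called higher, as Notch3 was. Of all genes, 2.82% were called higher in MeVa2.1 against MeVa2.2 and 6.45% in MeVa2.1.dOVA against MeVa2.2.dOVA. The 8 melanocyte markers summed to 9.71 to 17.2 CPM in MeVa2.1.dOVA, 15.2 to 27.3 in MeVa2.1, 9.07 to 16.6 in MeVa2.2.dOVA and 14.8 to 61.1 in MeVa2.2. The sums were mostly Mitf except in replicate 1 of MeVa2.2, with Sox10 at 0 to 19 counts and Mlana at 0 to 45. That library held 17.5 CPM of Mitf, 15.9 of Dct, 12.3 of Tyrp1 and 6.39 of Pmel. Dct and Tyrp1 were at 0 in replicate 2 of every line and in replicate 3 of all lines but MeVa2.2. The 7 fibroblast markers summed to 2015 to 3808 CPM in MeVa2.1.dOVA, 1602 to 3006 in MeVa2.1, 1501 to 4872 in MeVa2.2.dOVA and 2744 to 5646 in MeVa2.2. Their median log2 fold change was -2.32 for MeVa2.1.dOVA against MeVa2.1, with 1 of 7 called lower by edgeR, where 0.386% of all genes were. It was -2.49 for MeVa2.2.dOVA against MeVa2.2, with 3 of 7 called lower, where 1.57% of all genes were. Col1a1 and Col1a2 made up most of each sum and overlapped within both pairs. Col1a1 was at 967, 691 and 1364 CPM in MeVa2.1.dOVA, against 602, 721 and 1168 CPM in MeVa2.1. Col1a2 was at 1433, 1263 and 2413 CPM, against 797, 1437 and 1763 CPM. In the MeVa2.2 pair Col1a1 was at 200, 200 and 1016 CPM, against 794, 351 and 1460 CPM. Col1a2 was at 1246, 1322 and 3844 CPM there, against 2800, 2224 and 3945 CPM. For the mean dOVA difference 4 of the 7 fibroblast markers were called lower by edgeR, where 2.39% of all genes were. Hes1, Dll1 and Notch4 also had negative values there, and a link between the 2 was not tested. For MeVa2.2.dOVA against MeVa2.2, edgeR also called 1 of 6 tested melanocyte markers and 1 of 5 tested mural markers lower, against 1.57% of all genes. The 8 leukocyte markers summed to at most 4.20 CPM and the 6 keratinocyte markers to at most 3.03 CPM in any library. The part of other cells in the results was not tested.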

How the data were processed

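Whole-number counts of reads per gene, not normalized, were deposited for each library. Per the labels, RNA was column-purified and libraries were made with a stranded mRNA kit. The submitters' processing notes name the build GRCm38 and the tools STAR (version 2.6.0c), HTSeq (version 0.10.0) and DESeq2 (version 1.30.1); the annotation and HTSeq's strand setting are not given in the sources used here, so reads of a gene and its antisense partner may not be separated. Reads in the 5 tally lines of each file, 35.8% to 40.0% of a library, entered neither library sizes nor tests. Reads that map to several places are among those tallies, which could lower genes with close copies.

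Genes were named by identifier (55144 of 55471 had a symbol), and positions and exon lengths came from the GRCm38 annotation. The analysis used edgeR 4.0.16 (R 4.3.3; limma 3.58.1): filterByExpr left 13985 genes, libraries were scaled by TMM, and glmQLFit was fitted with 1 mean per line to all 12 libraries (8 residual and 3.54 prior degrees of freedom, common dispersion 0.121). P-values from glmQLFTest were adjusted by Benjamini-Hochberg over those genes. Correlations used log2 CPM with a prior count of 2. CPM was computed over all gene counts without TMM. The code was tested on simulated data.

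The members, lists and comparisons were chosen with earlier results of these data known. Named genes were the members; of each list, at most 4 genes called in 1 of the 5 comparisons, by adjusted p; and for the 4 most variable tested members, the 3 most correlated genes whose log2 CPM averaged at least 3. Groups and replicate numbers came from the sample titles.

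Deviations from the line mean, compared across genes between libraries with the same number, correlated at 0.503, 0.488 and 0.534 for MeVa2.1.dOVA with MeVa2.1, at 0.429, 0.405 and 0.328 for MeVa2.1 with MeVa2.2, and at 0.105, 0.516 and 0.416 between the dOVA lines, so these were treated as paired from the data and the value with the block is given where it changed a call. For MeVa2.2.dOVA with MeVa2.2 replicate 1 gave 0.0815, and these were not treated as paired. Alternatives were DESeq2 1.42.0, other scalings, no filter, the block, fits of 2 lines and leaving out libraries.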

Additional observations from a re-analysis of the deposited data

How the results depend on the processing

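No alternative turned the direction of any of the 22 fold changes given above for members, Neurl1b and Dtx3. Of 409 values under other settings, 358 kept their side of the threshold, 22 moved past it and 29 lost it. Counts of called members moved as follows. With DESeq2 they were 2 for MeVa2.2.dOVA against MeVa2.2 (0 with edgeR), 2 for MeVa2.1 against MeVa2.2 (1), 3 for the mean dOVA difference (0) and 5 over the 4 lines (2), where DESeq2 called 6.96%, 8.63%, 8.37% and 26.4% of all genes, against 1.99%, 4.48%, 2.87% and 14.2% by edgeR. Without the filter on low counts they were 2, 2, 2 and 3, with 2.59%, 3.44%, 3.3% and 10.3% of all genes called, and with the replicate block 2, 2, 3 and 4, with 7.75%, 9.51%, 11.9% and 31%. The block is not backed by the pairing check for MeVa2.2.dOVA with MeVa2.2, and it called Dll1 and Notch4 there. With the block, the mean dOVA difference called Hes1, Dll1 and Notch4, the 4 lines called Notch3, Notch4, Dll1 and Hey1, and the difference of differences called 0. These comparisons also include the MeVa2.2 pair, so the block is not fully backed for them. With both libraries that lay apart left out, Dll1 was the 1 member called for MeVa2.2.dOVA against MeVa2.2. Leaving out 1 library gave 1 to 3 members for MeVa2.1.dOVA against MeVa2.2.dOVA, 0 to 2 for the mean dOVA difference and 2 to 4 over the 4 lines, and no change in the other counts. Without replicate 3 of MeVa2.2.dOVA, edgeR called 18% of all genes between the dOVA lines, against 11.3% with it. Dtx3 in MeVa2.1 against MeVa2.2 missed the threshold without the filter (adjusted p 0.0555), with 2 lines fitted (0.0525) and without both libraries that lay apart (0.0608), and Neurl1b with 2 lines fitted (0.0530). The cause of these shifts was not tested. The replicate block changed no other call of a member. Levels of Notch4, Jag2, Dll4 and Hey1 rest on few counts, which limits what their differences can show.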

Other observations

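Notch3, Dll1 and Neurl1b lie on the same stretch of chromosome 17. A window from 15 to 33 Mb was drawn around them after their values were seen, so it carries no test. Its 231 tested genes had a median log2 fold change of 0.03 for MeVa2.1 against MeVa2.2, with 7 called (3.03%, against 4.48% of all genes). All 7 were higher, as 2.82% of all genes were. They include Notch3 and Neurl1b, around which the window was drawn. For MeVa2.1.dOVA against MeVa2.2.dOVA the median was 0.03 and 17 were called (7.36%, against 11.3% of all genes), 12 of them higher (5.19%, against 6.45%). Those 12 include Notch3, Dll1 and Neurl1b. Notch4 also lies on chromosome 17, outside the window (34564268 to 34588503, plus strand), and was called in neither comparison.

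Hey2, a relative of Hey1 chosen after its values were seen, ran the other way. It averaged 0.108 ± 0.0730 CPM in MeVa2.1.dOVA, 0.0461 ± 0.0427 in MeVa2.1, 2.33 ± 1.86 in MeVa2.2.dOVA and 1.04 ± 1.70 in MeVa2.2 (SD, n = 3). Without the replicate block edgeR did not call it in a comparison of 2 lines, DESeq2 called it between the dOVA lines, and the spread within the MeVa2.2 lines was nearly as large as their means or larger.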
